A study of Mus musculus with 12 samples.

Results

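The hippocampal transcriptome of female mice carrying a Chd8 frameshift allele was compared with that of wild-type females, in 3 libraries of each genotype. The libraries were grouped by their labels and are all the female ones, 6 of the 12 of the series. The comparison itself was chosen with earlier results of these data known. The other 6, from males, were used where a female difference was set against the male one. All mice had a C57BL/6 background and were at postnatal day 25. Mutants were heterozygous for the allele named CHD8 Asn2373LysfsX2, which leaves 1 normal copy, and no further treatment is named for any group. Hippocampus was taken as bulk tissue. Whether each library stands for its own animal is not stated, so p-values here weigh differences against library-to-library spread that may be technical. In bulk tissue, fewer cells of a type and less RNA per cell cannot be told apart.

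CHD8 belongs to the chromodomain helicase DNA-binding proteins, enzymes that use ATP to move nucleosomes and so alter access to DNA. Loss of 1 copy is a known cause of autism with a large head in people, and the protein is known to restrain beta-catenin and p53 and to occupy promoters of many genes. In oligodendrocytes, the cells that wrap axons in myelin, CHD8 is known to act early in differentiation, upstream of other chromatin remodellers.

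The allele lies near the end of the protein. Its name gives a change of an asparagine to lysine with a new reading frame that stops soon after. In the annotated transcript Chd8-201, of 2582 codons, the residue so numbered is encoded in exon 36 of 37 at chr14:52201700-52201702 on the minus strand of GRCm38, and 209 residues, 8.09% of the protein, follow it. The reference coding sequence around this codon is shown to place the mutation, with the codon of this asparagine in capitals and 45 bases on each side, 5′ to 3′ on the coding strand.
Chd8 around the mutated codon: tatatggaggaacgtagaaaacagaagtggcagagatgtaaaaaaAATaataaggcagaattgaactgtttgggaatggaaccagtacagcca
A run of adenines leads into the codon. The labels do not give the exact base change, so the mutant sequence is not shown.

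Values are normalized counts, that is, reads per gene divided by 1 size factor per library. Fold changes are differences of log2(normalized counts + 1), mutant minus wild type, given ± standard error from limma. Recovered depth was 23803605 to 24580863 reads in mutant females and 30016094 to 32284243 in wild-type females. Every mutant library was thus the shallower, and depth cannot be told apart from genotype. Xist, the X-inactivation transcript, stood at 29986 to 35140 in the 6 libraries, and the Y-linked Eif2s3y at 0 in all of them. Neuron markers of the hippocampus were abundant, with summed pyramidal neuron markers of 177896 to 198427 and dentate granule cell markers of 32810 to 38284. A pair of libraries stood apart in tissue lying beside the hippocampus. Ttr, the transport protein transthyretin, made in quantity by choroid plexus, was 167 in wild-type female 1 against 43047 to 142855 in the other 5 libraries. Acta2, the actin of smooth muscle, was 1503 in mutant female 2 against 310 to 499 in the other 5. The first principal component, 40.7% of the variance, was lowest in wild-type female 1, and the second, 22.2%, was highest in mutant female 2. Results of many lists, though not of all, are also given below with libraries left out.

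Of 17502 genes tested, 0 passed an adjusted p of 0.05 with limma, 0.0% of those tested, and 982 (5.61%) had an unadjusted p under 0.05. The edgeR quasi-likelihood test on recovered reads also called 0, with 1021 unadjusted. DESeq2 called 7, 0.04% of the genes tested: Wdfy1 and Gjc3 lower, and Foxc2, Wnt6, Nid1, Hba-a1 and Hbb-bs higher in mutants. Higher and lower therefore name directions of differences, which were called only where DESeq2 is named. By limma's unadjusted p under 0.05, 545 genes (3.11%) were higher and 437 (2.5%) lower. The 3 mutant values lay wholly above the 3 wild-type values for 899 genes (5.14%) and wholly below them for 985 (5.63%). These percentages are the background against which each gene group was read. The median log2 fold change over all genes was 0.00.

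Chd8 itself was lower in every mutant. Its normalized counts were 2893, 2845 and 2872 in wild-type females and 2477, 2426 and 2513 in mutants. The groups did not overlap and lay far apart relative to their spread, at 2870 ± 24.1 and 2472 ± 43.6 (mean ± SD, n = 3). The log2 fold change was -0.22 ± 0.03, or 13.9% lower, with an unadjusted limma p of 0.000295 and an adjusted p of 0.863. An exact two-sided permutation of the 6 values gave 0.1, the smallest that 3 against 3 allow. Without wild-type female 1 the value was -0.21, and without mutant female 2 it was -0.20. The male libraries gave -0.23 and did not overlap either, and the difference between the sexes had an interaction p of 0.744 (limma, unadjusted).

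The other 9 genes of the CHD family differed by less. Chd1l, a remodeller recruited to DNA damage, was 304, 304 and 292 in wild-type females and 330, 336 and 335 in mutants, which did not overlap (0.15 ± 0.07, limma adjusted p = 0.892). Chd1, linked to active transcription, stood at 0.12 ± 0.06 and overlapped. Chd7, the remodeller that acts with CHD8 in the oligodendrocyte lineage, was 873, 881 and 963 against 740, 893 and 878, and also overlapped (-0.12 ± 0.08). Chd2 was at 0.07, and Chd3, Chd4, Chd5, Chd6 and Chd9 lay between -0.04 and 0.02. Of all 10 genes, 1 had an unadjusted p under 0.05, Chd8.

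The lowest p belonged to Wdfy1, which encodes an adaptor protein of endosomes that bears on Toll-like receptor signalling. It was 1657, 1531 and 1532 in wild-type females and 1043, 1031 and 1092 in mutants, 32.9% lower. The groups did not overlap (-0.58 ± 0.05, limma adjusted p = 0.0684, DESeq2 adjusted p = 2.08e-10). In males, wild types stood at 1087, 1159 and 1068 and mutants at 1587, 985 and 1539. The 12 libraries thus fell into a lower set of 985 to 1159 and an upper set of 1531 to 1657, and genotype did not set apart the males. Wdfy1 lies at chr1:79702262-79776143 on the minus strand and its first bases overlap Mrpl44 on the plus strand, whose reads an unstranded library cannot separate there. Mrpl44 differed by -0.01 ± 0.09. Of the 9 other tested genes within 1 Mb, 1 had an unadjusted p under 0.05 (5.61% of all genes). This was Ap1s3 on the same strand, also lower in mutant females without overlap (-0.29 ± 0.12, limma unadjusted p = 0.0440).

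**Figure D1:**
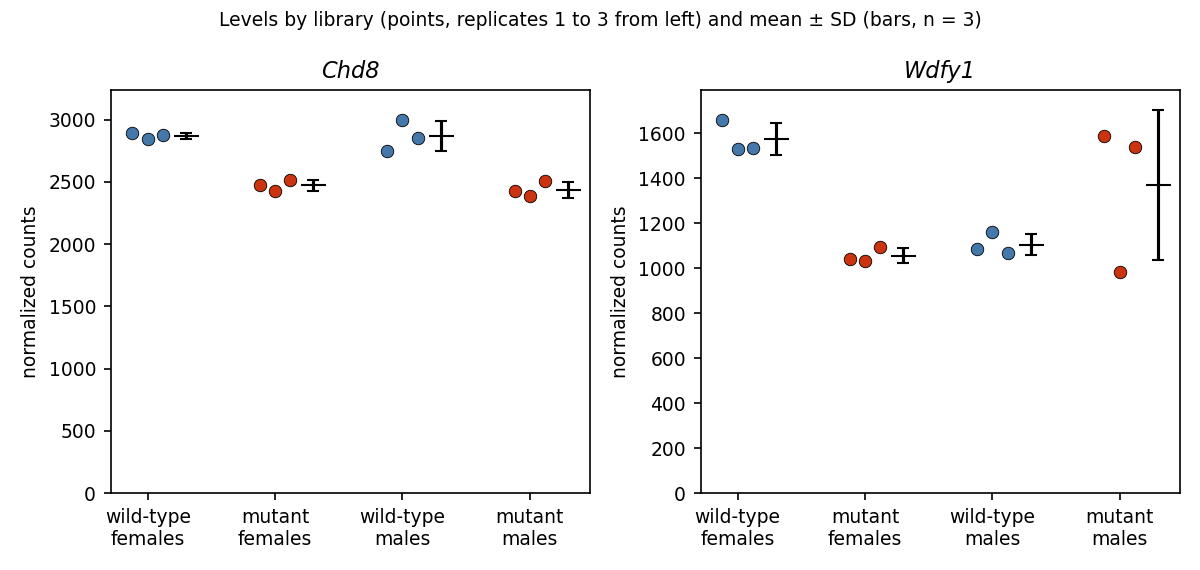
Normalized counts of Chd8 and Wdfy1 in each of the 12 libraries, by genotype and sex, with points for replicates 1 to 3 from left to right and bars for the mean ± SD (n = 3). Chd8 lay at 2383 to 2513 in mutants of both sexes and at 2751 to 2994 in wild types, whereas Wdfy1 was low in mutant females, in all wild-type males and in mutant male 2.

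Genes of myelin were lower in mutants by similar amounts. Of the 24 genes in a myelin list, all of which were tested, 23 were lower in mutants, 20 had an unadjusted p under 0.05 (2.5% of all genes in that direction) and 14 did not overlap (5.63%). Their median log2 fold change was -0.23, beside 0.00 over all genes, and none passed the adjusted threshold. The list's summed level was 480597, 550393 and 533209 in wild-type females and 408930, 470820 and 434359 in mutants, so that the highest mutant lay just below the lowest wild type. Wild-type female 1, which lacked choroid plexus RNA, was the lowest wild type, and mutant female 2, high in smooth muscle genes, was the highest mutant. Without the first, 21 genes had a p under 0.05 (2.98% of all genes) at a median of -0.29. Without the second, 20 did (2.61%) at a median of -0.29, and without both, 23 (3.43%) at a median of -0.34. The number fell when other libraries were left out, to 9 (1.35%) with mutant female 1 left out and 11 (1.91%) with wild-type female 2 left out. It was 15 (3.99%) in the absence of wild-type female 3 and 16 (1.68%) in that of mutant female 3. The median stayed between -0.29 and -0.19 whichever single library was left out, and 23 genes were below 0 each time.

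Single genes of the myelin list had log2 fold changes from -0.33 to 0.13. Mobp, a small basic protein of compact myelin, was 58815, 70520 and 63173 in wild-type females and 46967, 55292 and 52470 in mutants. Every mutant lay below every wild type (-0.31 ± 0.08, limma unadjusted p = 0.00611). Mbp, an abundant protein of compact myelin, was named after its values were seen. It was 155443, 177169 and 170501 against 132618, 153207 and 138170 (-0.25 ± 0.08). The groups did not overlap, but mutant female 2 came within a few percent of wild-type female 1. Mog, a protein of the sheath's outer surface, stood at 5853, 6970 and 6676 against 5140, 5612 and 5229 (-0.28 ± 0.07). Hapln2, a matrix link protein at nodes of Ranvier, was 504, 563 and 494 against 394, 403 and 445 (-0.33 ± 0.08), the largest difference of the list. The exception in direction was Trf, transferrin, at 0.13 ± 0.11 (limma unadjusted p = 0.307), and Aspa and Gjb1 overlapped at -0.14 and -0.15.

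**Figure D2:**
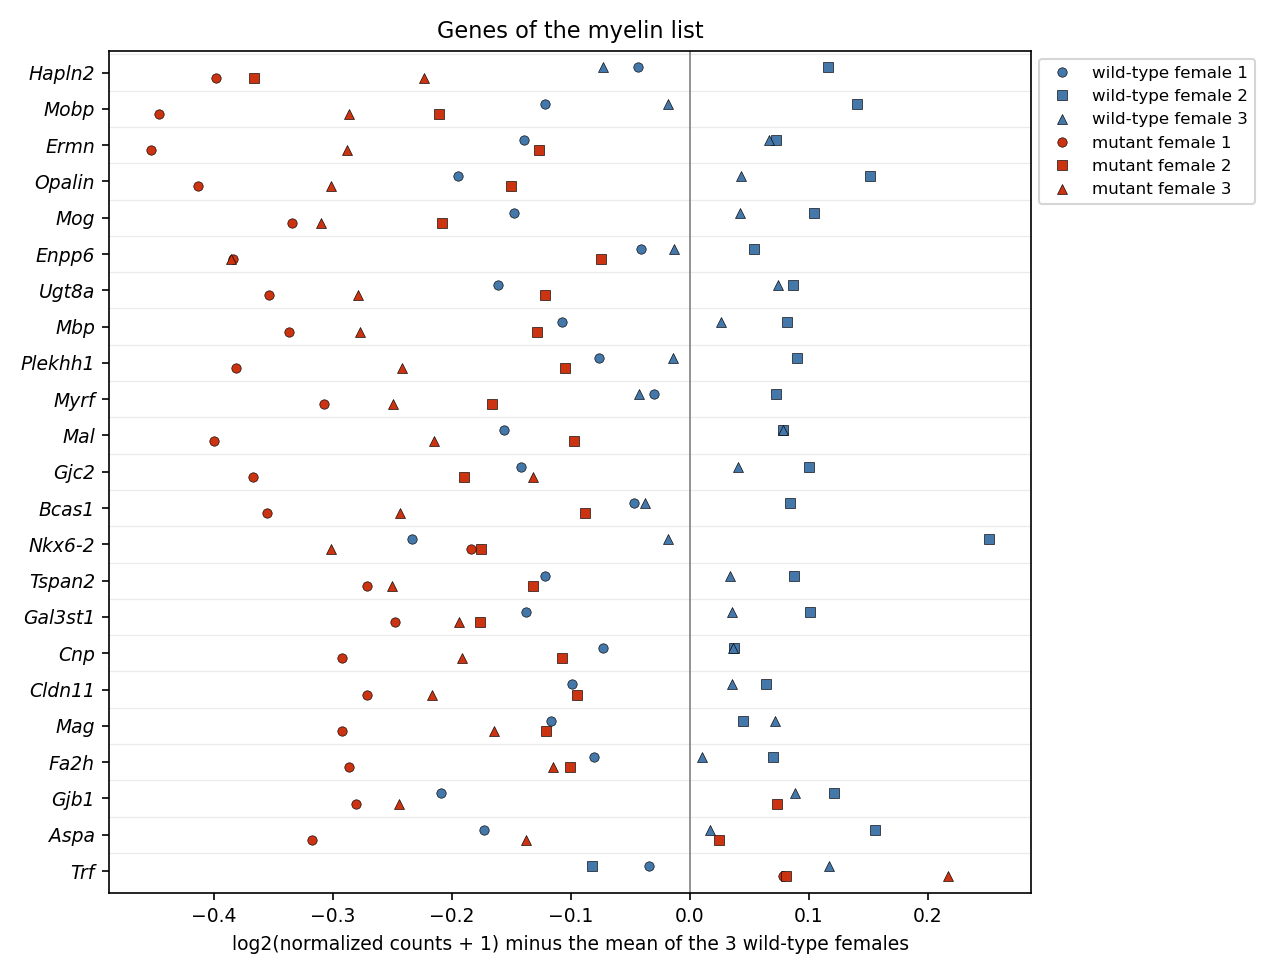
Level of 23 of the 24 myelin genes in the 6 female libraries, as log2(normalized counts + 1) minus the mean of the 3 wild types, with blue points for wild types and red for mutants. The mean of the mutants lies to the left for all of them but Trf, mutant female 1 mostly farthest, and mutant female 2 lies nearest to the wild types for most genes.

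Other oligodendrocyte genes were picked by their low p-values or as the leading genes of a list, so their shared direction is not a result. Gjc3, a connexin of oligodendrocytes, was 3106, 3303 and 3071 in wild-type females and 2407, 2668 and 2561 in mutants, a gap wider than the spread in either group. Its log2 fold change was -0.31 ± 0.05 (limma adjusted p = 0.863, DESeq2 adjusted p = 0.0121). Sox10, a transcription factor of the whole lineage, was 1777, 1887 and 1739 against 1482, 1537 and 1560 (-0.24 ± 0.05). Myrf, which turns on myelin genes at maturation and is 1 of the 24 genes of the myelin list, was 3031, 3254 and 3006 against 2502, 2759 and 2603 (-0.24 ± 0.05). Neither overlapped. Gpr17, a receptor of precursors committed to differentiate, stood at 3783, 3860 and 3563 against 3199, 3228 and 3224 (-0.21 ± 0.04). The 3 mutants were almost equal for this gene.

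Further genes known from the lineage lay among the lowest p-values. Anln, an actin-binding scaffold also found in myelin, was 1209, 1286 and 1202 against 938, 1070 and 1002 (-0.30 ± 0.06). Qk, the RNA-binding protein quaking that processes myelin transcripts, was 13471, 12937 and 13122 against 11466, 11988 and 11452 (-0.18 ± 0.04). Both were without overlap. Galnt6, an enzyme that starts O-linked glycans, was 484, 571 and 487 against 341, 399 and 356 (-0.49 ± 0.09), a larger difference than that of any gene in the myelin list. Of 12 precursor genes, 9 were lower, 4 with an unadjusted p under 0.05, at a median of -0.09. Those 4 were Gpr17, Sox10, Olig1 (-0.20 ± 0.05) and Olig2 (-0.16 ± 0.05), the last pair being transcription factors kept through the lineage. The precursor markers Pdgfra, at 0.07, and Cspg4, at 0.13, were not lower.

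Ion channel and transport genes were also among the named lower genes. Kcna6, a voltage-gated potassium channel, was 1776, 1623 and 1644 against 1388, 1378 and 1488 (-0.24 ± 0.05). Slc6a8, the creatine transporter, was 3604, 3669 and 3585 against 3246, 3255 and 3274 (-0.15 ± 0.03), with little spread in either group. Rnd2, a small GTPase of migrating neurons, stood at -0.19 ± 0.04, and Kcnj10, a potassium channel of astrocytes and oligodendrocytes, at -0.18 ± 0.05. Kcna1 was at -0.12 ± 0.05, and these 3 did not overlap. Of 23 genes in a potassium channel list that does not hold Kcna6, these last 2, Kcnj10 and Kcna1, had an unadjusted p under 0.05, and the list's median was 0.01. In the cholesterol synthesis list, which supplies membrane lipid, 15 of 21 genes were lower and 3 had an unadjusted p under 0.05, at a median of -0.06. Cyp51 (-0.15 ± 0.05) and Lss (-0.13 ± 0.05) were among the 3. With 1 library left out, 2 to 5 genes had such a p (1.35% to 3.99% of all genes lower) and the median was -0.08 to -0.02.

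Genes of the connective tissue that covers the brain were higher in mutants, by far more but unevenly. All 17 genes of a meningeal fibroblast list were higher, 14 with an unadjusted p under 0.05 (3.11% of all genes in that direction), at a median log2 fold change of 1.29. In 5 the groups did not overlap (5.14%). The summed level was 8912, 10355 and 17739 in wild-type females and 24689, 33231 and 18300 in mutants. Mutant female 3 thus stood next to wild-type female 3. Without mutant female 2 the median was 0.88 and 4 genes had a p under 0.05 (1.74% of all genes). Without wild-type female 1 it was 1.05 with 7 genes (3.33%), and without both it was 0.71 with 4 (3.36%). Only 4 genes (2.06%) had such a p without wild-type female 2 and 6 (2.02%) without mutant female 1, at medians of 1.18 and 1.25. Without mutant female 3 the median was 1.63 with 14 genes (3.4%).

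Collagens and membrane transporters of these coverings separated the mutants among themselves. Col1a1, a chain of fibrillar collagen, was 388, 333 and 435 in wild-type females and 898, 1573 and 546 in mutants (1.26 ± 0.33). Col1a2 was 569, 596 and 782 against 1614, 3037 and 959 (1.38 ± 0.36), and Col3a1 was 242, 251 and 294 against 710, 1568 and 359 (1.49 ± 0.45). The wild types were close together and the mutants spread about 3-fold or more. Slc47a1, an exporter of organic cations, was 20.9, 17.1 and 19.9 against 195, 480 and 26.0 (2.76 ± 0.89). Cdh1, E-cadherin, which joins epithelial cells and cells of the arachnoid barrier, was 14.5, 9.87 and 13.3 against 105, 252 and 19.2 (2.60 ± 0.79). Foxc2, a forkhead factor of mesenchyme, was 9.99, 13.5 and 14.1 against 65.4, 123 and 24.9 (2.16 ± 0.52). In each of these 6 genes mutant female 2 was highest, mutant female 1 next and mutant female 3 nearest the wild types. Itih2, Slc6a12, Slc6a13 and A4galt had the same order, at 1.58 ± 0.49, 1.56 ± 0.58, 1.29 ± 0.47 and 1.31 ± 0.42. None passed limma's adjusted threshold (0.863 for each), and DESeq2 called Foxc2 (adjusted p = 0.0242).

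A further set of these genes differed within the wild types as well. Igf2, a growth factor secreted by meninges and choroid plexus, was 1848, 3265 and 7361 in wild-type females and 8881, 10739 and 7272 in mutants, and overlapped (1.32 ± 0.43). Slc13a4, a sulfate transporter of the same tissues, was 220, 510 and 1093 against 1309, 1567 and 1071 (1.39 ± 0.49). Angptl2 was 96.2, 154 and 353 against 407, 494 and 365 (1.26 ± 0.41). These wild-type values were lowest in wild-type female 1 and highest in wild-type female 3, as those of Ttr were. Thbs1, a matrix protein that acts on vessels and synapses, ran likewise at 95.3, 120 and 212 against 205, 365 and 255 (0.99 ± 0.31). Without wild-type female 1, Igf2 was at 0.85, Slc13a4 at 0.80, Angptl2 at 0.84 and Thbs1 at 0.74. The part of choroid plexus content in these values was not tested.

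**Figure D3:**
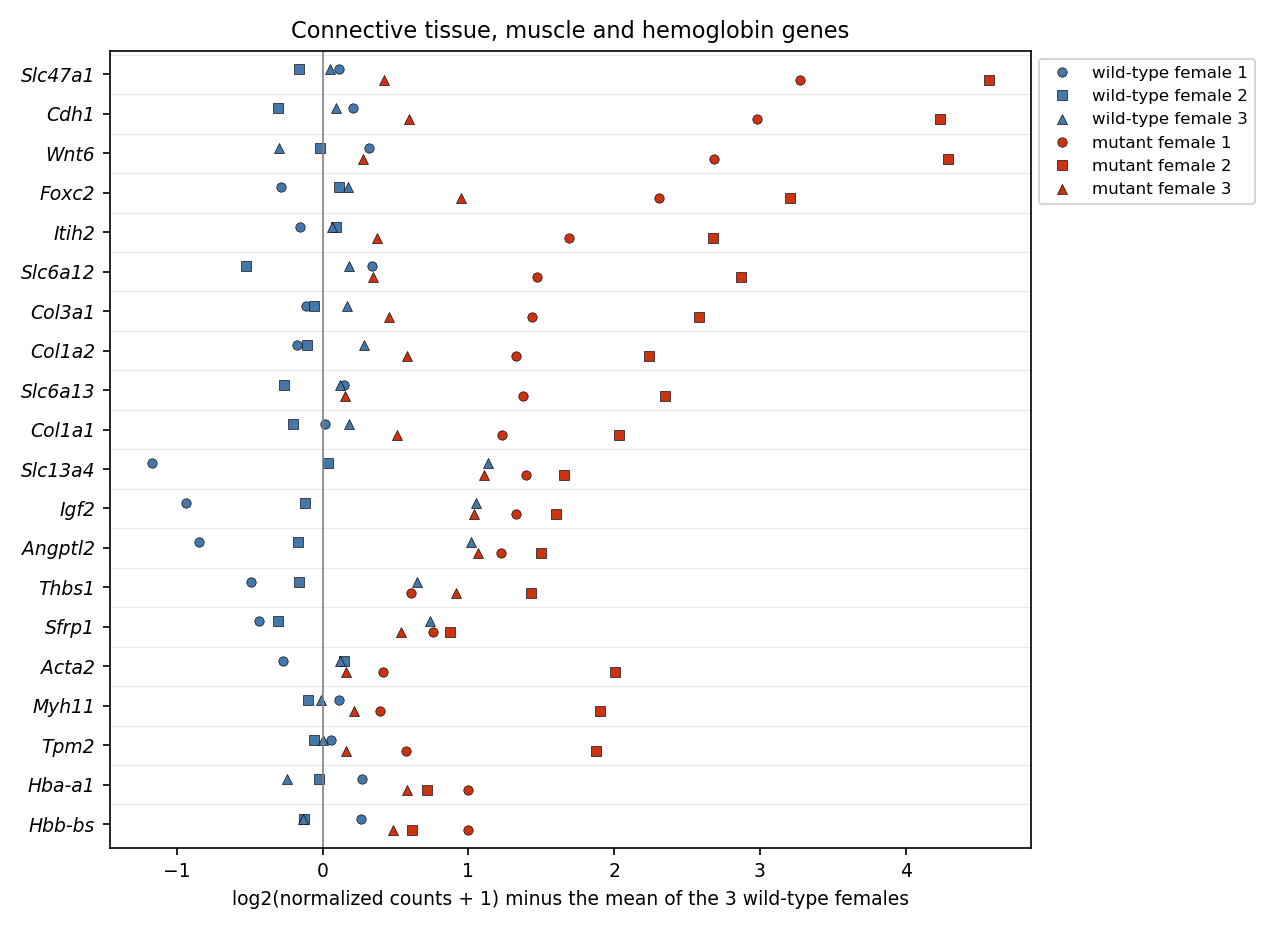
Level of 20 connective tissue, smooth muscle and hemoglobin genes in the 6 female libraries, as log2(normalized counts + 1) minus the mean of the 3 wild types. For the collagens and Slc47a1, mutant females 1 and 2 lie far to the right and mutant female 3 near the wild types, for Acta2, Myh11 and Tpm2 mutant female 2 lies farthest to the right, and for Igf2 and Slc13a4 the wild types are themselves spread.

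Basement membrane and matrix genes differed less. All 24 genes of the collagen and matrix list were higher, 8 with an unadjusted p under 0.05, at a median of 0.46. Without mutant female 2, 21 were higher and 3 had such a p (1.74% of all genes), at a median of 0.23. Without wild-type female 2 the number with such a p was 4 (2.06%), and without mutant female 3 it was 13 (3.4%). Nid1, which links laminin to collagen IV, was 479, 487 and 592 in wild-type females and 855, 1233 and 649 in mutants (0.77 ± 0.21, DESeq2 adjusted p = 0.0484). Col4a1, the basement membrane collagen of vessels, was 2744, 2618 and 2764 against 2977, 3283 and 2984 (0.18 ± 0.05), and Lamc1, a laminin chain, was 1586, 1550 and 1655 against 1896, 2144 and 1754 (0.27 ± 0.07). These 3 genes did not overlap, and mutant female 2 was highest in each.

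Vessel genes were higher by small amounts, and smooth muscle genes mainly in 1 library. All 15 endothelial genes were above 0, 5 with an unadjusted p under 0.05, at a median of 0.15. Without mutant female 2, 13 were above 0 and 3 had such a p (1.74% of all genes), at a median of 0.06. Without wild-type female 2 the number with such a p was also 3 (2.06%). Tie1, a receptor of the vessel lining, was 435, 393 and 440 in wild-type females and 521, 554 and 511 in mutants, and its groups were clear of each other (0.32 ± 0.07). Kdr, the receptor of vascular growth factor, was at 0.20 ± 0.07, Tek at 0.22 ± 0.08 and Vwf, a clotting protein of larger vessels, at 0.83 ± 0.30. Vwf was 1870 in mutant female 2 and 567 to 916 in the other 5 libraries. Of 11 pericyte genes 10 were above 0, 3 with a p under 0.05, at a median of 0.11. Without mutant female 2, 8 were above 0 at a median of 0.06, as was the median without wild-type female 2. The number with such a p was 5 without mutant female 3 (3.4% of all genes). The 3 genes were Anpep (113, 114 and 119 against 204, 343 and 167, 0.97 ± 0.24), Pdgfrb (0.34 ± 0.10) and Vtn (0.76 ± 0.25).

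All 12 smooth muscle genes were above 0 and 6 did not overlap (5.14% of all genes), yet 1 had an unadjusted p under 0.05, Pln, a regulator of calcium uptake (1.09 ± 0.46). Acta2 was 310, 415 and 407 in wild-type females and 499, 1503 and 417 in mutants (0.86 ± 0.43). Myh11, the myosin of smooth muscle, was 407, 350 and 373 against 495, 1409 and 438 (0.84 ± 0.39), and Tpm2 was 121, 111 and 116 against 173, 429 and 130 (0.87 ± 0.38). For these 3 genes mutant female 3 lay nearest to the wild types and mutant female 1 stood above all of them, well below mutant female 2. The list's median was 0.80 and dropped to 0.19 without mutant female 2, and to 0.15 without wild-type female 1 as well. Without mutant female 3 the median was 1.13 and 9 genes had a p under 0.05 (3.4% of all genes). In that setting 10 did not overlap (1774 of all 17508 genes higher without overlap). With no filter on low genes 4 had such a p (2.68%), and 0 did when any 1 of the 3 wild types was left out.

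Hemoglobin genes were higher in all 3 mutants. Hba-a1, an alpha chain, was 240, 195 and 168 in wild-type females and 398, 327 and 298 in mutants (0.77 ± 0.16, limma adjusted p = 0.863, DESeq2 adjusted p = 0.0490). Hbb-bs, a beta chain, was 487, 372 and 368 against 813, 621 and 568 (0.70 ± 0.16, DESeq2 adjusted p = 0.0425). Hba-a2 (0.79 ± 0.21) and Hbb-bt (0.85 ± 0.25) had the same order of libraries, with mutant female 1 highest. None of these 4 overlapped, but each pair is nearly identical in sequence and reads may be split between them. Without wild-type female 1 and mutant female 2, Hba-a1 was at 0.93 and Hbb-bs at 0.87. Alas2, which starts heme synthesis in red cells, was at 0.39 and overlapped, and Slc4a1, their anion exchanger, was too low to be tested. Of the 7 erythroid genes tested, 6 were above 0 and 4 had an unadjusted p under 0.05. The male libraries were all within 312 to 552 for Hba-a1, with the genotypes overlapping.

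Choroid plexus genes had the highest median of the lists, and it moved widely with the wild-type libraries. All 17 were above 0 at a median of 1.66, 1 had an unadjusted p under 0.05, and none was without overlap. Their sum was 7457, 79499 and 250049 in wild-type females and 156065, 89023 and 201669 in mutants. Kcnj13, a potassium channel of this epithelium, was 3.63, 80.8 and 239 against 181, 106 and 202 (1.82 ± 1.24, limma adjusted p = 0.931). Prlr, the prolactin receptor, was 102, 794 and 2326 against 1701, 865 and 2755 (1.47 ± 1.01). Without wild-type female 1 the list's median was 0.08, 11 of 17 genes were above 0 and Ttr changed sign, from 2.94 ± 2.17 to -0.015. Without wild-type female 3, the library highest in these genes, the median was 2.87. All 17 then had a p under 0.05 (6.0% of all genes) and 15 did not overlap (2348 of all 17493 genes higher without overlap). Without both wild-type female 1 and mutant female 2 the median was 0.42, with all 17 above 0.

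The direction of the ependyma, the ciliated lining of the ventricle, turned with wild-type female 1. The list's summed level was 1521 in that library and 2226 to 3218 in the other 5. With all libraries, 8 of 12 tested genes were above 0 at a median of 0.06, with 0 at an unadjusted limma p under 0.05. When that library was left out, 11 of 12 were below 0 at a median of -0.30. Of these, 2 had such a p (2.98% of all genes) and 4 did not overlap (2039 of all 17505 genes lower without overlap). Without mutant female 2 as well, the median was -0.39, 5 genes had such a p (3.43%) and 7 did not overlap. With 2 libraries a group, 3315 of all 17457 genes were lower without overlap.

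**Figure D4:**
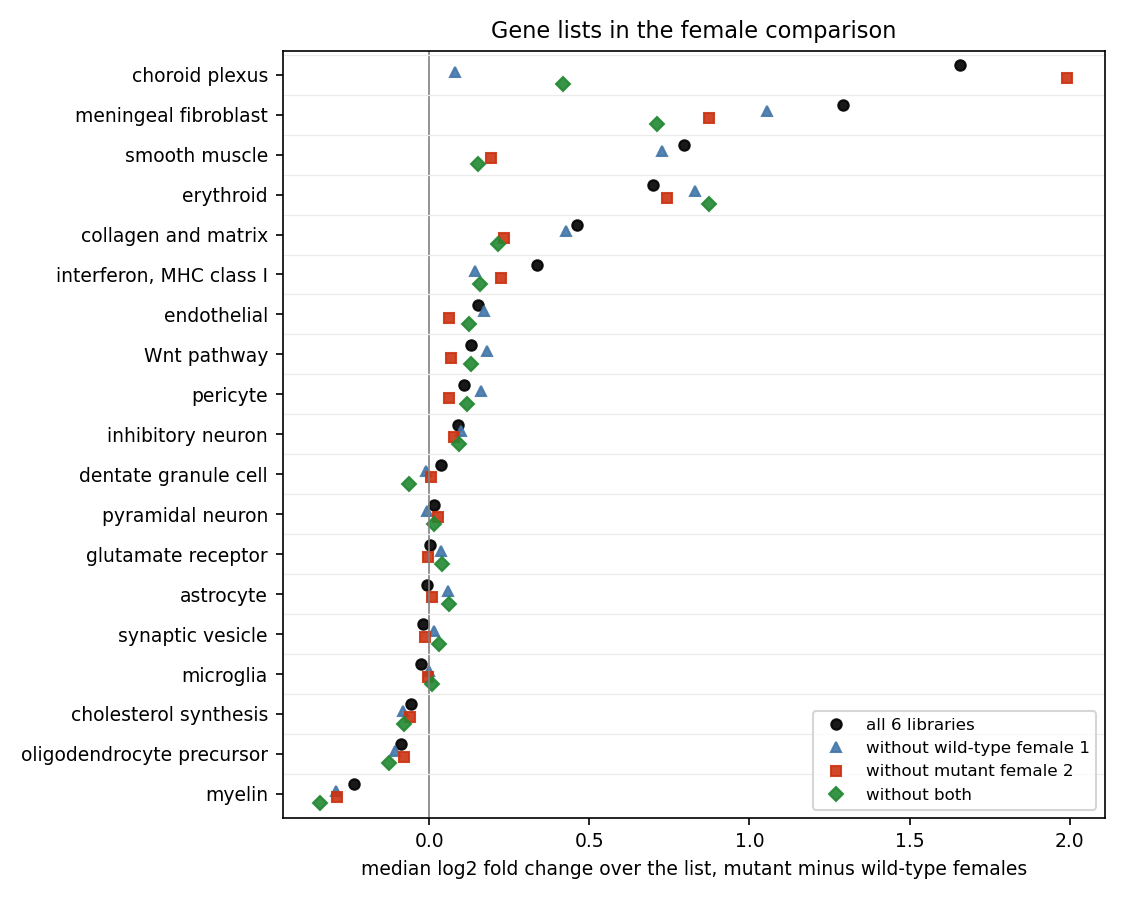
Median log2 fold change of 19 gene lists, mutant minus wild-type females, with all 6 libraries, without wild-type female 1, without mutant female 2 and without both. The choroid plexus median falls from 1.66 to 0.08 without wild-type female 1, the smooth muscle median from 0.80 to 0.19 without mutant female 2, and the myelin median lies between -0.34 and -0.23 in the 4 settings. For myelin the libraries left out here are the lowest wild type and the highest mutant, so these settings widen that difference. Without mutant female 1 or without wild-type female 2, neither of them drawn, the myelin median was -0.19.

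Neurons and synapses showed little in the female comparison. Medians were 0.02 for pyramidal neuron markers, 0.02 for CA1 and CA3 field markers, 0.04 for dentate granule cell markers and 0.06 for immature neuron genes, each list with 0 genes at an unadjusted limma p under 0.05. They were 0.00 for 21 glutamate receptor genes, -0.01 for 16 GABA receptor genes and -0.02 for 19 synaptic vesicle genes, also with 0. With 1 library left out the medians of these 7 lists lay between -0.06 and 0.10, and at most 3 genes of a list had such a p, the 3 without wild-type female 3. Among 20 postsynaptic scaffold genes 1 had a p under 0.05. This was Nlgn3, a synaptic adhesion protein linked to autism, at 1786, 1783 and 1930 in wild-type females and 1637, 1490 and 1604 in mutants (-0.22 ± 0.05). Of 16 inhibitory neuron genes 14 were above 0, at a median of 0.09 (10 and 0.03 without wild-type female 3). Reln, the secreted protein reelin, was 2049, 1798 and 1710 against 2303, 2031 and 2317 and overlapped (0.26 ± 0.08). Dlx1, a factor of interneuron identity, was at 0.14 ± 0.05, and Gad2, which makes GABA, at 0.12 ± 0.05 with a p of 0.0514 in limma. Of 26 autism risk genes 1 had a p under 0.05, Arid1b, a subunit of another remodelling complex (0.10 ± 0.03), which did not overlap in either sex.

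Astrocyte and microglia lists had medians of -0.01 and -0.03, and without both wild-type female 1 and mutant female 2 the astrocyte median was 0.06. Without wild-type female 3 the microglia median was -0.10, with 11 of 15 genes below 0. Gjb6, a connexin of astrocytes, was 1167, 1004 and 861 in wild-type females and 1450, 1829 and 1121 in mutants (0.52 ± 0.18), and Aqp4, the water channel of their endfeet, was 5992, 6234 and 6133 against 5304, 5880 and 5620 (-0.13 ± 0.05). The first is also made by meningeal cells and had the order of the collagens, with mutant female 2 highest. C1qc, a complement chain of microglia, was at 0.19 ± 0.07.

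In the Wnt list 21 of 31 tested genes were above 0, 6 with an unadjusted p under 0.05, at a median of 0.13. Wnt5a was 374, 369 and 407 in wild-type females and 489, 645 and 468 in mutants (0.46 ± 0.12). Wnt6 was 8.17, 6.28 and 4.98 against 46.3, 143 and 7.92 (2.42 ± 0.88), and its mutants ran in the order seen for Col1a1. DESeq2 called Wnt6 (adjusted p = 0.0429). The receptor Lrp5 was at 0.28 ± 0.09, the secreted inhibitor Sfrp1 at 0.72 ± 0.29, the receptor Fzd7 at 0.50 and Axin2, a target of beta-catenin signalling, at 0.13. The number of higher genes with a p under 0.05 was 2 without mutant female 2 (1.74% of all genes) and 2 without wild-type female 2 (2.06%). It was 3 when mutant female 1 was left out (2.02%). Of 17 p53 target genes, 11 were below 0 and 1 had a p under 0.05, at a median of -0.05.

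Interferon and antigen presentation genes were above 0 in 16 of 19, 5 with an unadjusted p under 0.05, at a median of 0.34. Ifitm3, which blocks viral entry, was 158, 246 and 254 in wild-type females and 300, 370 and 316 in mutants (0.61 ± 0.19). H2-D1, a class I antigen presenting chain, was 655, 724 and 687 against 842, 1106 and 745 (0.36 ± 0.13). Oasl2 was at 0.48 ± 0.17 and B2m at 0.22 ± 0.08, both overlapping. Without wild-type female 1 the median was 0.14 and 1 gene had a p under 0.05 (3.33% of all genes). Without wild-type female 3 it was 0.48 and 11 genes did (6.0%). The number was 3 without mutant female 1 (2.02%) or 2 (1.74%). Medians of the ribosomal protein and respiratory chain lists lay between -0.03 and 0.03, and between -0.05 and 0.06 with 1 library left out. Of 20 heat shock genes 2 were higher and 1 lower at that p, with Hspb1, a small chaperone, at 0.68 ± 0.20 and Cryab, a small chaperone abundant in oligodendrocytes, at -0.16 ± 0.07.

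Among other named genes, several low p-values belonged to genes with tight replicates. Id1, an inhibitor of DNA binding induced by bone morphogenetic proteins, was 410, 377 and 420 in wild-type females and 564, 579 and 508 in mutants (0.45 ± 0.08). Pygm, the glycogen phosphorylase of muscle and astrocytes, was 694, 648 and 698 against 805, 865 and 895 (0.33 ± 0.06). Bag3, a co-chaperone of heat shock protein 70 (HSP70) and 1 of the 2 higher heat shock genes, was 184, 176 and 170 against 262, 256 and 231 (0.49 ± 0.09). In none did the groups overlap. Alx4, a homeobox factor of mesenchyme, was 58.1, 53.9 and 87.1 against 122, 156 and 123 (1.02 ± 0.21), and Aox3, an aldehyde oxidase, stood at 1.03 ± 0.24. Kif7, a kinesin of hedgehog signalling, was at 0.58 ± 0.12, Zfp36l2, which destabilizes messenger RNA, at 0.39 ± 0.08, Pcdhb4, a protocadherin, at 0.71 ± 0.16 and Gdf10, a growth factor, at 0.31 ± 0.08. Ms4a7, a membrane protein of macrophages at the brain's borders, was 9.99, 10.8 and 11.6 against 23.7, 22.8 and 20.4 (0.98 ± 0.23). Hjurp, a centromere chaperone, was 1883, 1810 and 1789 against 2468, 1995 and 2508 (0.34 ± 0.09) and was also without overlap in males. Lower genes of little known function included Gm12940 (-0.27 ± 0.05) and A730056A06Rik (-0.63 ± 0.20), the second annotated as antisense, whose reads cannot be separated by strand here. Rbks, ribokinase, was 79.0, 80.8 and 66.4 against 42.9, 60.8 and 55.4 (-0.51 ± 0.19) and did not overlap in males either.

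The female differences were set against those of the male libraries, which share no sample with them. Across 17283 genes the log2 fold changes of both sexes had a Spearman rho of 0.01 and a Pearson r of -0.29, a description over genes that are not independent. Groups were apart in the same direction in both sexes for 198 genes (1.13%) and in opposite directions for 118 (0.674%). Of the 105 genes apart and lower in both sexes (0.6%), 3 belonged to the myelin or precursor lists, Mobp, Plekhh1 and Enpp6, and Chd8, Galnt6 and Anln were also among them. The difference between the sexes, tested as an interaction over all 12 libraries, passed an adjusted p of 0.05 in limma for 0 of 17496 genes, with 1373 (7.85%) at an unadjusted p under 0.05.

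Gene groups differed in how the sexes compared. The 23 myelin genes that were lower in females were also lower in males, where the median was -0.24 and 16 of 24 had an unadjusted p under 0.05, beside 6.78% of all genes lower at that p. In males 5 of the 24 were lower without overlap, beside 14 in females. The share of all genes lower without overlap was 5.63% in females and was not computed for males alone, so these counts cannot be compared. The summed level overlapped, with mutant male 3 at 440199 above wild-type male 2 at 431007. Mutant males were also all shallower, at 23721482 to 24654408 reads against 26912998 to 33327314 in wild-type males. None of the 24 myelin genes had an interaction p under 0.05. For the meningeal fibroblast list the male median was 0.07, and 7 of 17 genes had an interaction p under 0.05. Its summed level was 24530, 19352 and 16630 in wild-type males and 18048, 16948 and 13461 in mutant males. Wild-type females 1 and 2, at 8912 and 10355, lay below all of these, and wild-type male 1 lay near mutant female 1, at 24689. For the erythroid list the male median was -0.04, and 4 of 7 genes had such an interaction p, the 4 hemoglobin genes. For smooth muscle it was 0.53, with 0 of 12, and in males 2 mutant libraries were high in these genes. Choroid plexus genes had a male median of -3.22 and all 17 had an interaction p under 0.05, in libraries where Ttr was 269 and 274 in mutant males 2 and 3. Other lists with such genes included synaptic vesicle (6 of 19), collagen and matrix (8 of 24) and heat shock (5 of 20), beside 7.85% of all genes. Their male medians were 0.09, -0.03 and -0.08.

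**Figure D5:**
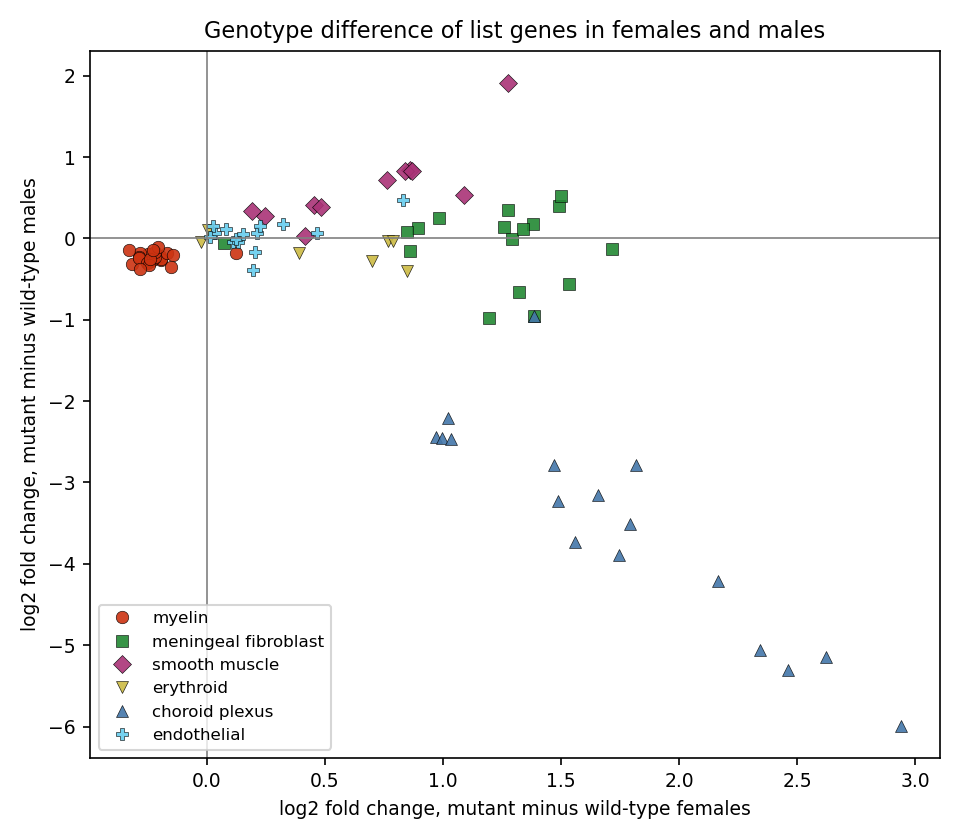
Log2 fold change of the genes of 6 lists in females (horizontal) against males (vertical), mutant minus wild type, with 1 point per gene. Of the myelin genes 23 of 24 lie below 0 in both sexes, 11 of 12 smooth muscle genes, 9 of 17 fibroblast genes and 1 of 7 erythroid genes lie above 0 in both, and the choroid plexus genes run in opposite directions.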

How the data were processed

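RNA of mouse hippocampus was sequenced from TruSeq v2 libraries, per the labels' protocols. This kit marks no strand. The submitters' processing notes name GRCm38 and the tools Trimmomatic (0.35), TopHat2 (2.1.0), HTSeq and DESeq2, and no source used here names their annotation. What was deposited is a signal per gene, read counts that the authors divided by 1 size factor per library: every value is a whole multiple of 1 step per library (100% of values, within 0.001 reads). The design foresaw this unit. Symbols and positions of 45143 of 46078 gene IDs came from GENCODE M21, and the Chd8 sequence from its transcripts.

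Genes with a mean of at least 10 over the 6 female columns (28576 IDs fell below) were fitted as log2(value + 1), a scale that understates low genes, with limma 3.58.1 (trend, no block) in R 4.3.3 and Benjamini-Hochberg adjustment over all tested genes at 0.05. The interaction used 1 mean per group over 12 libraries. edgeR 4.0.16 and DESeq2 1.42.0 were run on recovered reads. The female limma fit, with and without a replicate block, edgeR, DESeq2 and the limma interaction were tested on simulated data. The male fit and the other settings were not. The simulated libraries did not differ in tissue content as the real ones do. Replicates of 1 group differed by a chi-square of 3.52 to 30.0 per degree of freedom, so none were duplicates. Groups and replicate numbers came from sample titles.

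The comparison, its members and the 41 gene lists were chosen with earlier results of these data known, so no p is given for a list. Named genes are Chd8 and its family, Ttr, Acta2, the 15 lowest p-values in each direction, up to 4 per list, the 5 lowest interaction p-values in each direction, and the 10 largest differences in each direction without overlap at a mean of at least 50. Alternatives were pseudocounts, filters, scaling factors, tools, a replicate block and left-out libraries. Results of some genes are not reported here.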

Additional observations from a re-analysis of the deposited data

Results flagged for a closer look

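In 12 of the named genes every mutant female differed from every wild-type female in 1 direction and every mutant male from every wild-type male in the opposite one. This holds for 0.674% of all genes. Of the 12, 9 were named for their low interaction p, and none passed limma's adjusted threshold for the interaction (adjusted p = 0.619 for each). The interaction value is the female minus the male log2 fold change. It was 0.49 for Pygm (0.33 in females, -0.16 in males), 0.63 for Tmem176a, 0.77 for Serpinh1, the collagen chaperone, 0.63 for Trim56, 0.63 for Rbms1, 0.37 for Kdr, 0.98 for Sult1a1 and 0.56 for Lrp5, all higher in mutant females and lower in mutant males. It was -0.28 for Sema4f, -0.22 for Tagln3, -0.17 for Taok1 and -0.57 for A330008L17Rik, lower in mutant females and higher in mutant males. Serpinh1 was 632, 702 and 797 in wild-type and 880, 1177 and 929 in mutant females, and 1037, 1065 and 944 in wild-type and 836, 828 and 829 in mutant males. Groups of 3 libraries were too small to test single libraries as outliers.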

How the results depend on the processing

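The number of genes past an adjusted p of 0.05 in females was 0 in limma with every pseudocount, scaling and left-out library tried, 1 without a filter on low genes (Wdfy1, adjusted p = 0.0455) and 7 with DESeq2. The number at an unadjusted p under 0.05 ranged from 590 (without mutant female 1) to 1748 (without wild-type female 3) when 1 library was left out. Same-numbered deviations correlated at 0.12, 0.00095 and 0.10, and unlike-numbered ones at -0.13 to 0.06. The correlations were weak, and whether replicate numbers pair the libraries is not settled. A replicate block gave no other call: 0 genes passed and 996 had an unadjusted p under 0.05. With 1 library of each genotype per number, such a block cannot change a fold change, so Chd8 stayed at -0.22 by design. For the interaction, leaving out 1 library gave 0 to 1 called genes, the 1 without mutant male 2, and 969 to 2167 at an unadjusted p under 0.05. edgeR and DESeq2 were not run for the interaction. Without both wild-type female 1 and mutant female 2, list medians moved by more than the spread of their scores to -0.34 for myelin, 0.71 for meningeal fibroblasts, 0.15 for smooth muscle and 0.43 for border macrophages, and with a change of sign to -0.39 for ependyma, 0.06 for astrocytes, -0.06 for dentate granule cells, 0.03 for synaptic vesicles, 0.04 for the CHD family and -0.10 for genes of thalamus and habenula. The median of delayed activity genes was 0.05. Of 106 named genes, Ttr changed direction, at -0.015 without wild-type female 1 and up to 4.85 without another library, and the other 105 kept theirs in every setting. Most were named for a low p or for groups without overlap, and where groups do not overlap no left-out library can change the direction. The kept directions are thus largely set by how the genes were picked. Depth differed between the genotypes in every pair of libraries, and with 3 libraries a group, of unstated origin, small differences are not resolved.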

Other observations

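Lists of 2 further cell types at the brain's borders were put together after their values were seen, so they are descriptions only. Of 9 tested genes of macrophages at these borders, 8 were above 0 in mutant females and 5 had an unadjusted limma p under 0.05, at a median of 0.69. Without mutant female 2 the median was 0.37 and 1 gene had such a p (1.74% of all genes higher), and without mutant female 3 it was 0.98 with 7 (3.4%). Cd163, a scavenger receptor, was 56.3, 61.9 and 46.5 in wild-type and 118, 119 and 62.2 in mutant females, and the mannose receptor Mrc1 was 144, 162 and 138 against 258, 378 and 140. The library order was that of the collagens, with mutant female 3 nearest the wild types. Ms4a7 and Pf4 instead were higher evenly in the 3 mutants, Pf4 at a log2 fold change of 0.82 ± 0.27. All 9 tested genes of the arachnoid barrier were above 0 at a median of 0.93, but 6 of 9 were without wild-type female 1 (median 0.84), and without wild-type female 3 the median was 1.57. Krt18 followed choroid plexus content, at 15.4, 97.8 and 294 against 178, 86.8 and 209. Crabp2, a retinoic acid binding protein, was 41.8, 17.1 and 30.7 against 123, 189 and 22.6, so that mutant female 3 lay within the wild types.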
